A study of Mus musculus with 7 samples.

Results

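A pair of blocks of tandem zinc finger genes of the mouse genome were examined for H3K9me3, one at chr2:175000001-177800000 and one at chr4:145200001-147800000 (build mm10). They were cut into windows of 10 kb by position alone, which gave 280 windows on chromosome 2 and 260 on chromosome 4, 540 of the 246067 autosomal windows. The 3 ChIP libraries came from the hippocampus of wild-type C57BL/6 mice aged 3 months. In the enriched cage group (2 libraries, replicates 1 and 2), mice spent 24 h in a large cage with toys and a running wheel and then 1 week in the home cage. The home cage group, which stayed in the home cage throughout, had 1 library. The hippocampus is a mixed tissue, so no value can be given to neurons or glia alone, and the labels do not say how many mice went into a library. The study also holds splicing counts of cultured cortical neurons of ICR embryos, treated with KCl or a control buffer for 10 min and harvested after 24 h (2 libraries each).

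H3K9me3, the trimethyl mark on lysine 9 of histone H3, is a mark of silent heterochromatin. Many zinc finger genes encode KRAB zinc finger proteins, which bind DNA, often in transposable elements, and recruit the co-repressor TRIM28 (KAP1) and with it the methyltransferase SETDB1, which deposits this mark. The zinc finger genes themselves are known targets of the mark, chiefly towards their 3′ ends, where the repeated zinc finger motifs are encoded. Such genes arise by tandem duplication, and young clusters hold copies so alike that a short read often has no unique place in them. In mouse embryonic stem cells, proteins encoded in the clusters of chromosomes 2 and 4 are known to bind and silence endogenous retroviruses.

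How alike the copies are can be read from their promoters, which are shown because likeness between copies bears on where a read can be placed. The 250 bases before the start are from RefSeq (GRCm38.p6), written 5′ to 3′ on the gene's strand, with the letters CCAAT, or their reverse complement ATTGG, in capitals. Zfp985 (chr4:147553027-147553276, plus strand) and Zfp988 (chr4:147305354-147305603, plus strand) had the highest promoter coverage among the Zfp genes of the chromosome 4 cluster with a matched promoter. Some Zfp genes there, Zfp992 among them, had none matched. Zfp600 (chr4:146156577-146156826, plus strand) and Rex2 (chr4:147021600-147021849, plus strand) are near copies with no promoter coverage in any library. The start used for Rex2 lies inside its gene model (chr4:146973610-147060799). Promoter and gene body values can thus refer to different starts, as they do for Zfp981 too. Zfp966 (chr2:175931101-175931350, minus strand) stands for the chromosome 2 cluster, and the 250 bases of Zfp967 (chr2:176520754-176521003, plus strand) are letter for letter the same.
Zfp985: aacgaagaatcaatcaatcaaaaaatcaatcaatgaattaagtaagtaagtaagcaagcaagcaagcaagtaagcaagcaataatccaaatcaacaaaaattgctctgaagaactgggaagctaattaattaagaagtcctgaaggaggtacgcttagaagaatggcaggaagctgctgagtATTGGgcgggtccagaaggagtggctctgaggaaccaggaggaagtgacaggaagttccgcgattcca
Zfp988: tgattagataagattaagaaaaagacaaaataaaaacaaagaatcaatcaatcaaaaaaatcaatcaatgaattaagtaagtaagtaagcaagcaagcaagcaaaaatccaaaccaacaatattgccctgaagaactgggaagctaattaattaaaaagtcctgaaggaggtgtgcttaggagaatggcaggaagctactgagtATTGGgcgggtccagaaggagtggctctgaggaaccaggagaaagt
Zfp600: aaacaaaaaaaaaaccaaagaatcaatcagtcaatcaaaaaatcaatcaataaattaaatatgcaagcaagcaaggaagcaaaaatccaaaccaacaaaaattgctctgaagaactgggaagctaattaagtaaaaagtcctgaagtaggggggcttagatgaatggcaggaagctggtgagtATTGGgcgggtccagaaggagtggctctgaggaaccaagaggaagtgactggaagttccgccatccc
Rex2: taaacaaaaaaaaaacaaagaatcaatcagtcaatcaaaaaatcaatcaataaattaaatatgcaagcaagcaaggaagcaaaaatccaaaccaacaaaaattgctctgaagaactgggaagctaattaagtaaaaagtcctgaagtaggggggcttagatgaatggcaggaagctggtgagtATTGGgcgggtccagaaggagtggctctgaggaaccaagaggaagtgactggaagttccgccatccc
Zfp966: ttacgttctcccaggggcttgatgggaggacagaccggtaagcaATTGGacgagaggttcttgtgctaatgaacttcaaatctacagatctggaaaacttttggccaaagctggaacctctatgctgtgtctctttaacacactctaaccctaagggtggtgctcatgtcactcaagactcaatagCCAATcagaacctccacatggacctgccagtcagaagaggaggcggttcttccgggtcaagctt
The promoters of Zfp600 and Rex2 differed by 2 edits (99.2% identity), while those of Zfp985 and Zfp988 differed by 70 (72% identity). The shared stretch around ATTGG lies closer to the start in Zfp988 than in Zfp985. Such a shift of the listed start counts as edits too, so 72% understates how alike the shared bases are, and near copies can be missed. Zfp985 and Zfp966, from different clusters, had 43.2% identity by the same alignment. The promoter of Tnfrsf8, no zinc finger gene, had 46.8% to its best match in the chromosome 4 cluster, so 43.2% is no sign of likeness.

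Levels are given as the mean coverage of a window over the median autosomal window of the same library, so 1 is the typical window. The tracks held 12589445 and 7819038 fragments on the autosomes in the enriched cage libraries 1 and 2, against 5982902 in the home cage library. An input or control-antibody track was not used here, so a level joins the mark with how well reads can be placed.

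The first check was for windows without any coverage. In the chromosome 2 cluster, 186 windows (66.4%) were empty in enriched cage library 1, 192 (68.6%) in enriched cage library 2 and 197 (70.4%) in the home cage library. Of its 280 windows, 182 (65%) were empty in all 3 libraries, against 7426 (3.02%) of all autosomal windows. In the chromosome 4 cluster, 50 windows (19.2%) and 57 windows (21.9%) were empty in the enriched cage libraries, against 56 (21.5%) in the home cage library, and 48 (18.5%) were empty in all 3. None of the 1509 windows at zinc finger genes elsewhere (symbols starting with Zfp) was empty in all libraries, and neither was any window in the 1 Mb on each side of either cluster. Most of the empty sequence of chromosome 2 was 1 unbroken run of 1519322 bases at chr2:175180495-176699816. For that run, a count of 0 would allow a level of up to 0.000412 and 0.000635 in the enriched cage libraries. In the home cage library it would allow 0.000859, taking 3 fragments as the limit. These limits hold only if reads can be placed throughout the run, which was not looked up. The chromosome 4 cluster had 10 uncovered runs of at least 10 kb, the longest of 150560 bases, which held 22.8% of it, against 67.1% in 5 such runs on chromosome 2.

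Promoters with a near copy were all empty on chromosome 2. Of the promoters matched in RefSeq, 10 of the 34 there without unread bases had a near copy (at least 98% identity) in the same cluster, and all 10 had neither promoter nor gene body coverage in any library. The other 24 included 14 with no promoter coverage and 9 with no gene body coverage. All 10 lie in the single uncovered run, however, and the 8 promoters without a near copy in that run are as empty, so this is 1 region and not 10 separate cases. Outside the run no promoter had a near copy, and 6 of 16 had no coverage. On chromosome 4, 4 of 20 promoters had a near copy, among them Zfp600 and Rex2, and 2 of the 4 had no coverage, against 1 of the other 16. The part that read placement has in these values was not tested, and an empty window gives no level of the mark.

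**Figure D1:**
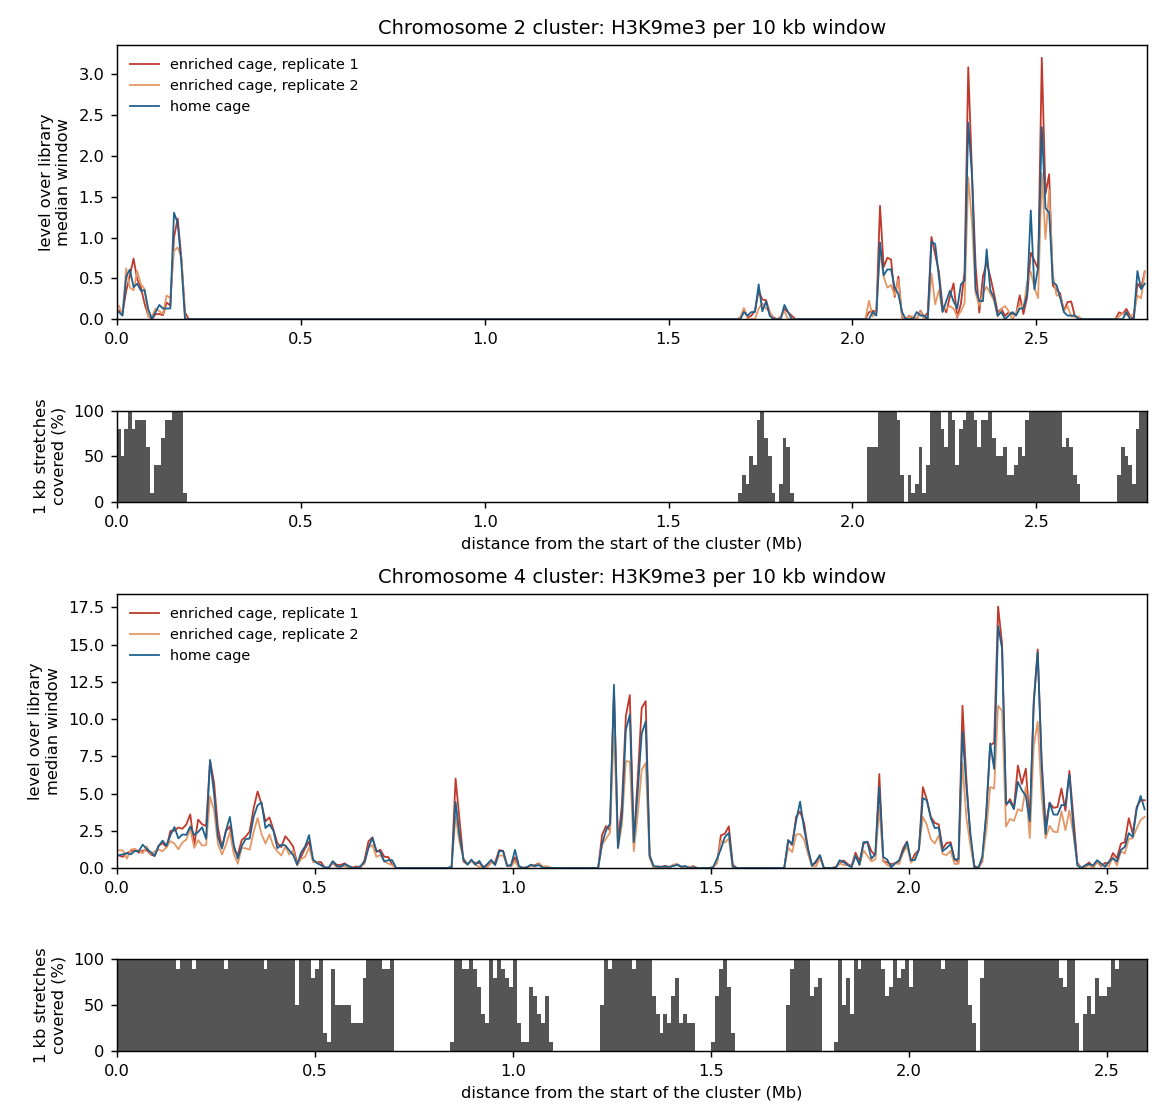
H3K9me3 level per 10 kb window (over the library's median autosomal window) along each cluster, against the distance from its start in Mb, with enriched cage replicates 1 and 2 and home cage as lines. The bars below give the share of 1 kb stretches of each window with coverage in any library. The chromosome 2 panel is empty over 1519322 bases, and the chromosome 4 panel has separate blocks that reach 17.6, 10.9 and 16.3 in the highest window.

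With empty windows counted as 0, the mean level of the chromosome 4 cluster was above the typical window and that of the chromosome 2 cluster below it. The second value rests mostly on empty windows, which give no level of the mark. The mean level on chromosome 4 was 1.87 (95% counting interval 1.85 to 1.89) and 1.26 (1.24 to 1.29) in enriched cage libraries 1 and 2, against 1.72 (1.69 to 1.75) in the home cage library, from 23283 and 10194 fragments against 10285. On chromosome 2 it was 0.135 (0.129 to 0.141) and 0.0963 (0.0899 to 0.103) in the enriched cage libraries, against 0.12 (0.112 to 0.129) in the home cage library, from 1809 and 838 fragments against 774. These intervals cover counting error only. The median window of chromosome 4 was below 1, at 0.757 and 0.569 in the enriched cage libraries and 0.696 in the home cage library, so the mean above 1 came from part of its windows. Within the 1 kb stretches that had coverage in any library, 67.2% of chromosome 4 and 23.5% of chromosome 2, the level was 2.79 and 1.88 in the enriched cage libraries against 2.56 in the home cage library on chromosome 4. On chromosome 2 it was 0.573 and 0.409 in the enriched cage libraries against 0.511 in the home cage library. A stretch counts as covered with any covered base, so its uncovered bases still count as 0. Bases covered in any library made up 48.9% of chromosome 4 and 11.5% of chromosome 2, less than these stretches. The measure therefore does not give the level where reads can be placed.

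The mark on chromosome 4 lay in blocks. Of its 260 windows, 42 (16.2%) were above the 99th percentile of the autosomal windows in all 3 libraries, against 0.546% of all autosomal windows. In all 3 libraries, 17 windows (6.54%) were among the highest 0.1% of the library, against 0.0691% of all. Clustered protocadherin genes had larger shares, 58.5% above the 99th percentile and 21.5% in the highest 0.1%. For other Zfp genes the shares were 8.08% and 1.92%, and for the cluster's flanks 7.5% and 0.5%. Olfactory receptor genes had 0.159% and 0%. The highest window, chr4:147420001-147430000, had levels of 17.6 and 10.9 in the enriched cage libraries and 16.3 in the home cage library, and was the 15th of all 246067 by its mean. It holds no gene model and lies 13114 bases before Zfp982, a zinc finger gene. Its neighbour chr4:147430001-147440000 was 20th, at 15.1 and 10.6 in the enriched cage libraries and 14.7 in the home cage library. On the other side of Zfp982, chr4:147520001-147530000 was 21st, at 14.7 and 9.82 in the enriched cage libraries against 14.5 in the home cage library, and chr4:147510001-147520000, which holds the end of the gene, was 30th, at 11.2 and 8.18 against 11 in the home cage library. The strongest blocks thus stood on both sides of the same gene.

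The highest single kilobase of either cluster was chr4:146455001-146456000, inside the model of Zfp992. It had levels of 29.7 and 29.3 in the enriched cage libraries and 37.5 in the home cage library, 56th of 2460753 autosomal stretches of 1 kb. Its window, chr4:146450001-146460000, had levels of 12 and 9.42 in the enriched cage libraries and 12.3 in the home cage library, 28th of all. The same window holds part of Vmn2r-ps16, a vomeronasal receptor pseudogene, and Vmn2r-ps20, another one, lies in the block after Zfp982 with 16.3 and 13.9 over its 294 bases in the enriched cage libraries and 16.6 in the home cage library. Of the 83 RefSeq gene models of the chromosome 4 cluster, 55 were pseudogenes, transcribed ones included, and 20 were protein-coding, 15 of these with a Zfp symbol.

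The highest windows of chromosome 2 lay towards its distal end. Window chr2:177510001-177520000, which holds the end of the lncRNA gene Gm14403 (chr2:177498226-177512311), had levels of 3.2 and 1.79 in the enriched cage libraries and 2.35 in the home cage library. Window chr2:177310001-177320000, in the pseudogene Gm14412, was alike, with 3.09 and 1.74 against 2.41 in the home cage library. The strongest kilobases of the first lie past the end of Gm14403, where no gene model is listed, and the gene body itself had 0.866 and 0.378 in the enriched cage libraries against 0.756 in the home cage library. The windows ranked 3524th and 3725th of all windows, and no window of the cluster passed the 99th percentile in all 3 libraries. The lowest covered windows, chr2:176780001-176790000 and chr4:146220001-146230000, held 1 fragment in 1 library and were at 0.0209 in enriched cage library 1 and 0 in enriched cage library 2 and the home cage library.

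Gene bodies followed the blocks. Zfp981 had the highest level of the protein-coding genes of chromosome 4, with 7.61 and 4.67 in the enriched cage libraries and 6.52 in the home cage library. Zfp992 followed with 6.66 and 5.36 in the enriched cage libraries and 6.78 in the home cage library. Zfp982 had 5.28 and 3.69, against 4.81 in the home cage library. All 3 of these zinc finger genes were above 3.5 in each library. Gm42346, a predicted gene, had 4.76 and 3.03 in the enriched cage libraries against 4.26 in the home cage library. Zfp985 had 4.35 and 2.69 against 3.97, and Zfp984, whose model runs past the end of the cluster, 3.49 and 2.62 against 3.21 in the home cage library. Zfp978 followed with 2.09 and 1.37 in the enriched cage libraries against 1.95 in the home cage library, and Gm13212, a predicted gene, with 2.05 and 1.23 against 1.97. The first 6 genes, 5 of them among the 15 with a Zfp symbol, were the ones with a mean over the libraries above 2. Elsewhere 98 of 367 Zfp genes (26.7%) and 1322 of all 20665 autosomal protein-coding genes (6.4%) were above 2.

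Other genes of the same cluster were low. Rex2, a zinc finger gene, had 0.198 and 0.131 in the enriched cage libraries and 0.169 in the home cage library, with 8.86% of its bases covered on average. Zfp987 had 0.31 and 0.18 against 0.305, Zfp534 0.319 and 0.26 against 0.322, and Zfp991 0.406 and 0.274 against 0.405 in the home cage library. Low genes also had few covered bases, and 10 of the 20 coding genes had fewer than 50% of their bases covered on average. Level and covered share come from the same fragments, so the second is no separate check. Over all autosomal windows the covered share was 57.4% and 48.5% in the enriched cage libraries and 45.1% in the home cage library. Zfp988 shows both ends: its body had 0.941 and 0.58 in the enriched cage libraries and 0.84 in the home cage library, while its 300 promoter bases (250 before and 50 after the start) had 9.21 and 2.7 against 13.3. Zfp985 was high in both, with 7.98 and 6.88 over the promoter bases in the enriched cage libraries and 15.4 in the home cage library. Fragments were 207 and 238 bases long in the enriched cage libraries and 285 in the home cage library. The levels over 300 bases thus rest on few fragments, and no counting interval was made for them. Tnfrsf1b and Tnfrsf8, 2 receptors of the tumour necrosis factor family at the edge of the interval, are no zinc finger genes and lay near the typical window, at 1.06 and 1.05 in the enriched cage libraries against 0.978 in the home cage library for Tnfrsf1b and 1.15 and 1.14 against 1.24 for Tnfrsf8.

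Of the 26 protein-coding genes of chromosome 2, 18 had no coverage in any library, among them Zfp965, Zfp966, Zfp967, Zfp968 and Zfp973 and the predicted genes Gm14391, Gm14440 and Gm4631. Over all autosomal protein-coding genes this was so for 358 (1.73%). Zfp970 was the covered one of the 6 Zfp genes there, with 0.173 and 0.273 in the enriched cage libraries and 0.211 in the home cage library. The highest coding model was LOC115489542, an unnamed locus at the proximal edge, with 0.399 and 0.375 in the enriched cage libraries and 0.361 in the home cage library. Gm14393 had 0.129 and 0.196 against 0.17 in the home cage library, and the other 5 covered genes (Gm14295, Gm14322, Gm14410, Gm14305 and Gm14444) had a mean over the libraries of 0.0829 or less.

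**Figure D2:**
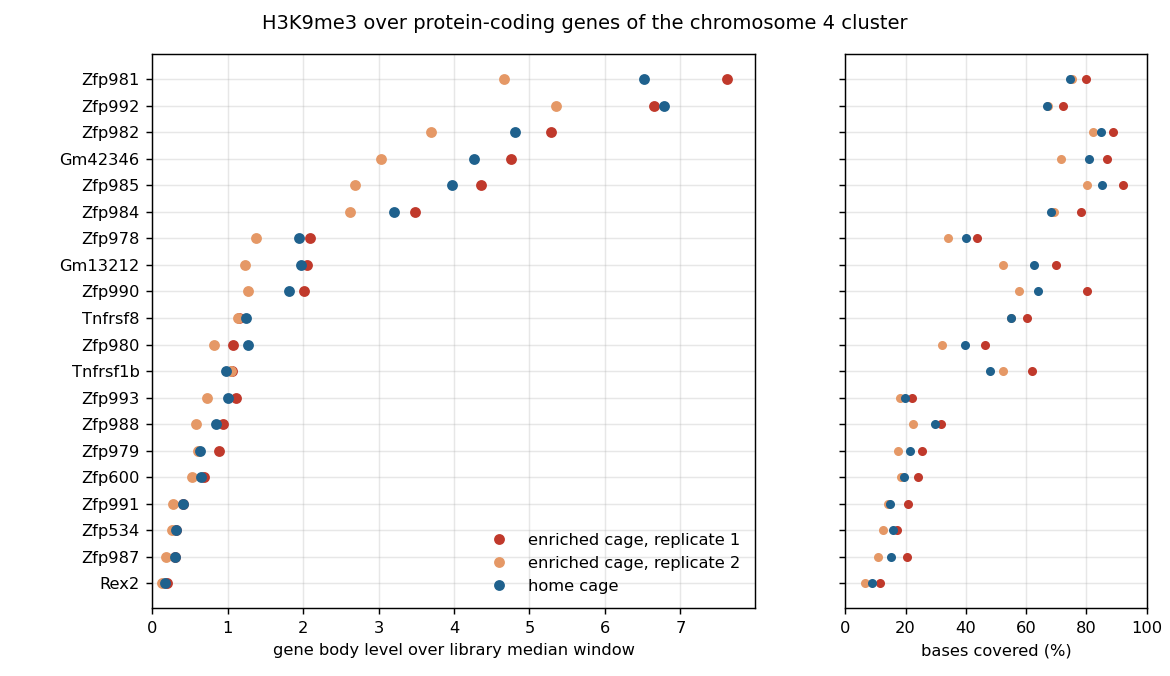
Gene body H3K9me3 (left, mean level over the library's median autosomal window) and share of bases covered (right, percent) for the 20 protein-coding genes of the chromosome 4 cluster, with 1 point per library. Zfp981, Zfp992 and Zfp982 lead, Rex2 is lowest, and genes with low levels have few covered bases, since both values come from the same fragments.

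Along the gene, the chromosome 4 copies differed from other zinc finger genes. Over the 13 zinc finger or predicted genes with a known strand, the last 10% of the body had 1.27 and 1.32 times the level of the first 10% in the enriched cage libraries and 1.14 times in the home cage library. Over 308 Zfp genes elsewhere it had 2.33 and 1.95 times the level in the enriched cage libraries and 2.31 times in the home cage library. The cluster's ratio was lower in each library, by a mean of -0.82 on the log2 scale (SD 0.23, n = 3 libraries, exact sign-flip p = 0.25, 2-sided, the smallest 3 libraries can give). The cluster's mean was highest outside the bodies, at 2 to 4 kb past the gene end with 4.93 and 3.5 in the enriched cage libraries and 4.27 in the home cage library, and in the farthest upstream bin with 4.43 and 2.95 against 4.29. A few genes carried these means: the median gene in the home cage library had 1.43 and 0.613 in the same bins, and its highest values were 2.29 in the third bin of the body and 2.27 in the 2 kb before the start. Among the other Zfp genes, the median gene in the home cage library had 0.688 in the first 10% and 1.07 in the last. Their mean climb was thus also carried by part of the genes. Genes of the cluster lie close together and some models overlap, so a downstream bin can belong to a neighbour. Bins of the body can too: the model of Zfp993 (chr4:146512849-146991471) starts inside that of Zfp981 (chr4:146502000-146539395). The first 10% of Zfp993 thus counts part of Zfp981 again. What this does to the ratio was not tested.

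**Figure D3:**
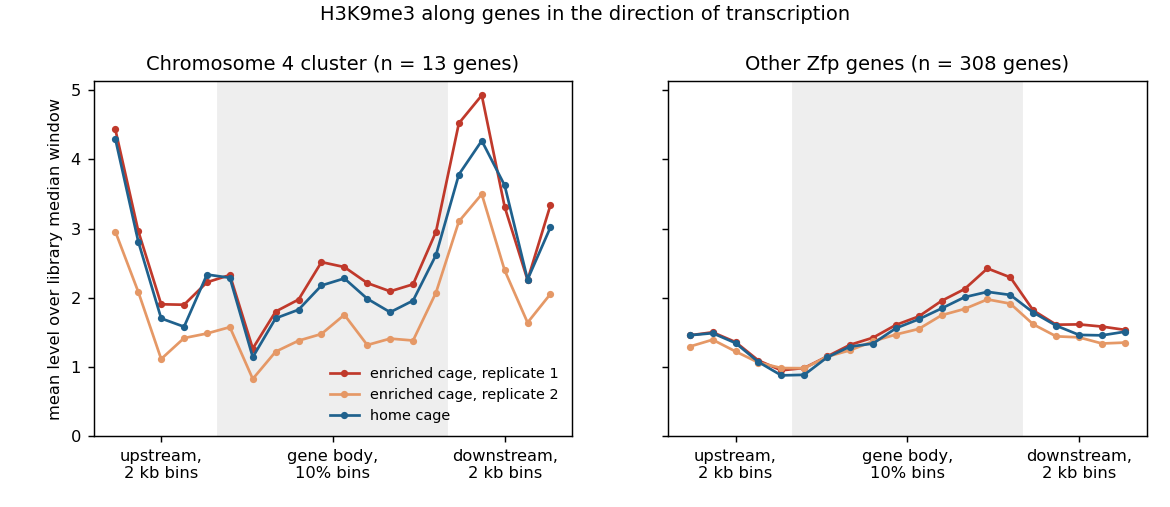
Mean H3K9me3 level (over the library's median autosomal window) along 13 genes of the chromosome 4 cluster (left) and 308 Zfp genes elsewhere (right), with 5 upstream bins of 2 kb, 10 bins of 10% of the body (shaded) and 5 downstream bins of 2 kb, 1 line per library. The mean of other Zfp genes climbs along the body to 2.42, 1.98 and 2.08 in the bin before the last, where their median gene in the home cage library is at 1.16. The cluster's mean is highest outside the body, where a few genes carry it.

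The clusters were next set against like regions within each library. The chromosome 4 cluster had a mean log2 ratio of 0.23 (SD 0.25, n = 3 libraries, exact sign-flip p = 0.5, 0.5 adjusted over 8 comparisons) to windows of other Zfp genes, with enriched cage library 2 on the other side of 0, at -0.06. To olfactory receptor genes, another large tandem family, it was 0.12 (SD 0.10, exact p = 0.25, adjusted 0.33), and to its own flanks 0.06 (SD 0.12, exact p = 0.5, adjusted 0.5). The clustered protocadherins, cell adhesion genes of neurons in tandem arrays, were higher than the cluster in each library (log2 ratio -1.02, SD 0.09, exact p = 0.25, adjusted 0.33). With windows compared by their median the cluster was lower than other Zfp genes (-0.59), olfactory receptor genes (-1.05) and its flanks (-0.80). Over windows with at least 90% of bases covered, 10 of them in the cluster, it was above the protocadherins (0.75). Over all autosomal windows 57.4% and 48.5% of bases were covered in the enriched cage libraries and 45.1% in the home cage library. The 90% limit thus picks windows with a high level, and that ratio compares windows chosen by the value measured. In covered 1 kb stretches, a measure chosen after seeing the data, the ratio to other Zfp genes was 0.78 (SD 0.25). It was 0.67 to olfactory receptor genes (SD 0.10), 0.62 to the flanks (SD 0.12) and -0.48 to the protocadherins (SD 0.09). These stretches are picked by coverage in the same libraries, so this too is a choice by the value measured. It kept 67.2% of the cluster and 98.6% of the windows of other Zfp genes, which raises the cluster's mean more.

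The chromosome 2 cluster was lower than all 4 in each library, by -3.56 (SD 0.19) to other Zfp genes, -3.66 (SD 0.06) to olfactory receptor genes, -4.81 (SD 0.04) to the protocadherins and -3.23 (SD 0.22) to its flanks on the log2 scale (exact p = 0.25, adjusted 0.33 in each). In covered stretches, which still hold uncovered bases, these became -1.49, -1.6, -2.75 and -1.2. Its flanks held 1.4 and 1.29 in the enriched cage libraries and 1.37 in the home cage library before the cluster. They held 0.827 and 0.853 after it in the enriched cage libraries, against 0.813 in the home cage library. For chromosome 4 the side before the cluster was the higher, at 2.24 and 1.49 against 2.03, with 1.16 and 1.18 after the cluster against 1.13 in the home cage library.

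**Figure D4:**
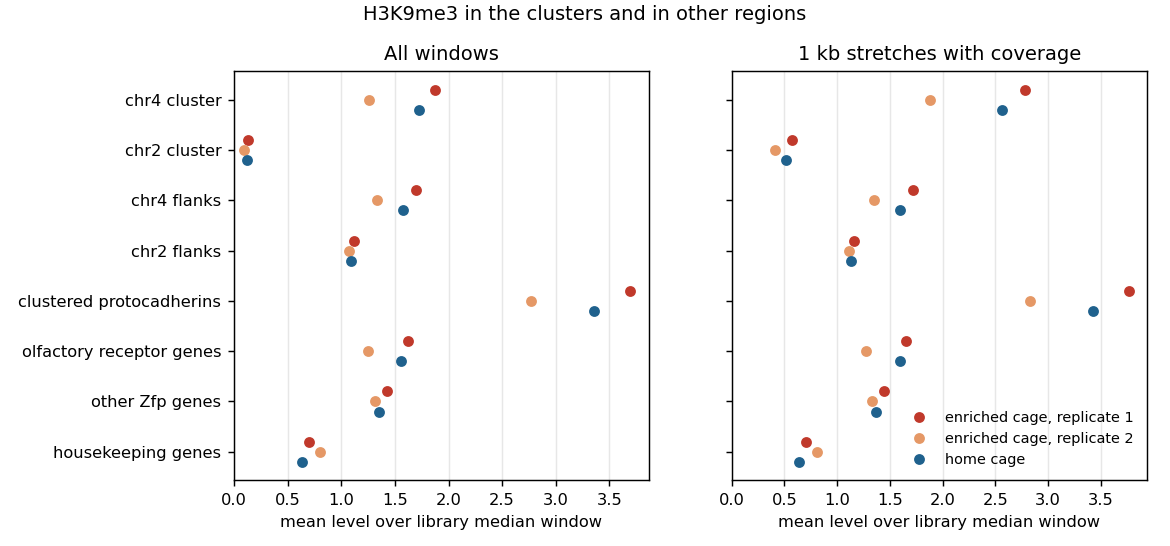
Mean H3K9me3 level (over the library's median autosomal window) of the clusters and like regions, for all windows (left) and for 1 kb stretches with coverage in any library (right), with 1 point per library. In covered stretches the chromosome 4 cluster lies above every region shown but the protocadherins in each library, and the chromosome 2 cluster lies below all of them. The stretches are picked by coverage in the same libraries and still hold uncovered bases.

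The study asked whether an enriched environment leaves a lasting change in H3K9me3, and in both clusters the enriched cage libraries lay on either side of the home cage library. On chromosome 4, enriched cage library 1 was 1.09 times home cage (95% counting interval 1.06 to 1.11) and enriched cage library 2 was 0.733 times (0.713 to 0.754). On chromosome 2 the ratios were 1.12 (1.03 to 1.22) and 0.801 (0.726 to 0.884). The enriched cage mean was 1.57 ± 0.43 (SD, n = 2) against 1.72 in the home cage library on chromosome 4, and 0.116 ± 0.027 (SD, n = 2) against 0.12 on chromosome 2. The log2 differences of -0.14 and -0.06 had an exact permutation p of 1 each, where 2 libraries against 1 cannot go below 0.33. The enriched cage libraries differed more from each other than their mean did from the home cage library. Without enriched cage replicate 2 both differences became positive, at 0.12 on chromosome 4 and 0.17 on chromosome 2, and without replicate 1 they were -0.45 and -0.32.

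Window by window, 242 of the 540 windows (59 on chromosome 2 and 183 on chromosome 4) had a mean level of at least 0.1 and were tested with limma, fitted across 237108 autosomal windows on log2(level + 0.1). A fold change on this scale understates that of low windows. No window of the clusters passed an adjusted p of 0.05 (smallest 0.292), where 66 of all autosomal windows did (0.0278%), each of them higher in the enriched cage group. At an unadjusted p under 0.05, 7 windows of the clusters (2.89%) were found, against a background of 7.16% of all autosomal windows. Of these, 1 was higher in the enriched cage group, against a background of 4.55%, and 6 were lower, against 2.61%. With a limma fit that lets no trend of the spread with level in, chosen after seeing the data, 1 window passed, against 0.128% of all windows, and without the filter on low windows 23 did, against 0.18% of all windows, each with no more than 10 fragments in any library. In simulated data this test found 7.5% of the windows changed by 1 on the log2 scale and 100% of those changed by 2. The simulation gave every window the same spread, while fitted standard errors in the clusters ran from 0.285 to 7.85. These shares therefore do not hold for windows of the clusters with a wide fitted spread. For the highest windows of chromosome 4 the fitted spread was wide, with a standard error of 7.85 at chr4:147420001-147430000, so a change there could not be detected by this fit. The fit without a trend gave a standard error of 0.31 for the same window, with a log2 change of -0.23 (limma adjusted p = 0.948).

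Windows with the smallest p were low or middling ones. Window chr4:146200001-146210000, 1245 bases after the end of Zfp600, had levels of 0.71 and 0.45 in the enriched cage libraries and 1.22 in the home cage library, a log2 change of -0.98 (SE 0.31, limma adjusted p = 0.292). Window chr2:177220001-177230000, in the model Gm14400, had 0.791 and 0.182 in the enriched cage libraries and 0.921 in the home cage library (-1.03, SE 0.35, limma adjusted p = 0.368). The 3rd, chr2:177480001-177490000, lies 807 bases after Zfp970 and had 0.814 and 0.581 against 1.33 (-0.86, SE 0.30, limma adjusted p = 0.385). In all 3 both enriched cage libraries were below the home cage library. Among windows with both above it, chr4:146720001-146730000 in Zfp993 had the smallest p, with 2.19 and 1.82 in the enriched cage libraries and 1.27 in the home cage library (0.62, SE 0.31, limma adjusted p = 0.683). The window that passed without a trend, chr2:177040001-177050000, had 4 and 7 fragments in the enriched cage libraries and 0 in the home cage library. If reads can be placed throughout it, 0 fragments there allow a level of up to 0.13.

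Counted by side, both enriched cage libraries were above the home cage library in 42 of the 242 tested windows (17.4%) and below it in 73 (30.2%), against 34.2% in each direction over all autosomal windows. The commonest arrangement was enriched cage library 1 above and library 2 below, in 118 windows (48.8%), against a background of 17.8%. It held for 99 of the 183 windows of chromosome 4 (54.1%) and 19 of the 59 of chromosome 2 (32.2%), and for 297 of 1503 windows of other Zfp genes (19.8%). By gene body it held for 12 of the 15 Zfp genes of chromosome 4, against a background of 13.6% of 20307 covered autosomal protein-coding genes and 25.1% of 367 other Zfp genes. The other 3 (20%) were lower in both enriched cage libraries, against a background of 24% of those autosomal genes and 21.3% of other Zfp genes. At levels of 4 or more, the median log2 ratio to the home cage library was 0.14 in library 1 and -0.45 in library 2 over 29 windows of the clusters, against 0.13 and -0.29 over 371 other autosomal windows. At levels of 2 to 4 it was 0.17 and -0.41 over 44 windows of the clusters, against 0.07 and -0.35 over 7292 others. At levels of 0.5 to 2 the clusters stood further from the rest, with 0.05 in library 1 and -0.39 in library 2 over 84 windows, against 0.01 and -0.01 over 222374 others. In that range library 2 was below the home cage library in 77.4% of the windows of the clusters, against 50.7% of the others. This difference was not tested. On chromosome 4, 67.2% of 1 kb stretches had coverage in any library, against 94.4% of all autosomal ones. A level of 0.5 to 2 there can average strong and uncovered bases, so the windows compared need not be alike. All windows share these 3 libraries, so the counts over windows are not counts of independent changes.

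**Figure D5:**
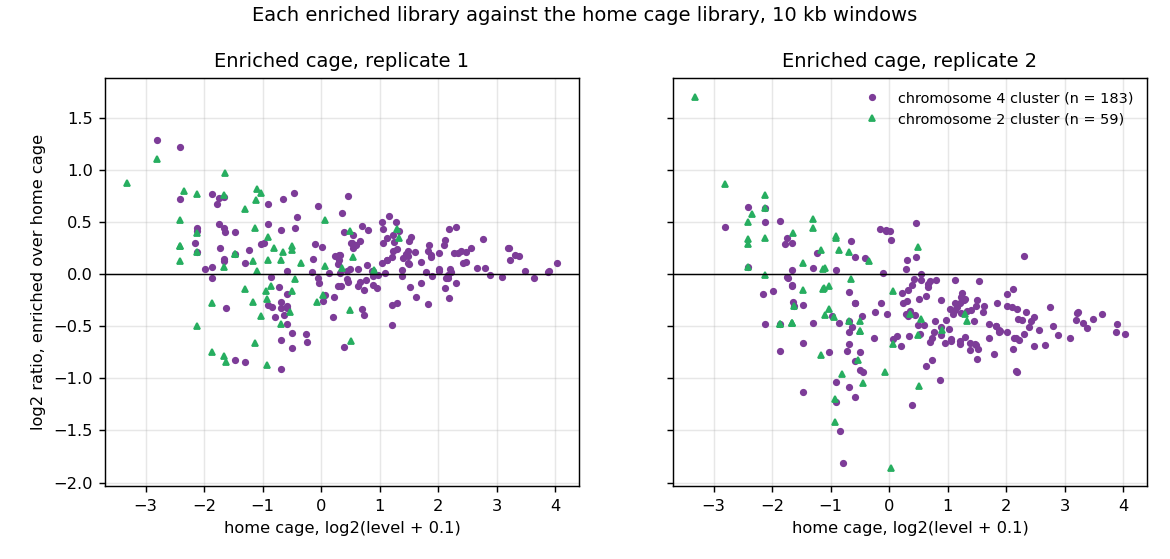
Log2 ratio of enriched cage replicate 1 (left) and replicate 2 (right) over the home cage library, on log2(level + 0.1), against the home cage level on the same scale, for 183 tested windows of the chromosome 4 cluster and 59 of the chromosome 2 cluster. Replicate 1 lies above home cage in 160 of the 242 windows and replicate 2 below it in 191.

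The windows kept their order between libraries. Over the 212 windows of chromosome 4 with coverage, Spearman's rho was 0.979 between the enriched cage libraries, 0.982 between enriched cage library 1 and the home cage library, and 0.974 between enriched cage library 2 and the home cage library. Over the 98 covered windows of chromosome 2 it was 0.877, 0.883 and 0.838 for the same pairs. These are descriptions across windows, which share their libraries and their mappable sequence.

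Short motifs were counted in the promoters, and differences in these counts were not tested. CCAAT, the letters of the CCAAT box, on either strand, stood in 26 of 35 promoters of chromosome 2 and 13 of 20 of chromosome 4, against 46.5% of 314 promoters of other Zfp genes and 34.3% of 25748 autosomal promoters. GGGCGG, the letters of the GC box, on either strand, stood in 0 of 35 promoters of chromosome 2 and 11 of 20 of chromosome 4, against 38.9% and 33.3%. TATAAA stood in 2 of 35 and 0 of 20, against 5.73% and 13%. The median promoter of either cluster held 2 CG dinucleotides, against 10 in other Zfp promoters and 6 in all. Many of the copies descend from one another, so they are not independent, and a match of letters is no binding site.

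The genes of the co-repressor pathway that zinc finger proteins use (Trim28, Setdb1, the HP1 genes and others) were themselves at the level of ordinary genes. Of 17 listed genes, 14 were matched on the autosomes. Their 76 windows had 0.884 and 0.909 in the enriched cage libraries and 0.828 in the home cage library. None of the 76 passed the limma test (median log2 change 0.08). Over all autosomal windows 0.0278% passed, a share at which 76 windows would seldom hold a call. Housekeeping genes had 0.7 and 0.801 against 0.638 in the home cage library.

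In the splicing counts of cortical neurons, 5 cassette exons lay in the clusters, in Gm14399, Gm14403, Gm14296, Gm4724 and Gm13248. Gm4724 had 12 inclusion reads and 0 skipping reads in KCl replicate 2, against 14 and 1 in control replicate 2. Gm14403 had 5 inclusion and 3 skipping reads in KCl replicate 1 and 4 and 1 in KCl replicate 2, against 7 and 2 in control replicate 1 and 0 and 3 in control replicate 2. Reads of 0 to 14 per form are too few to compare, and copies this alike can share reads.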

How the data were processed

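H3K9me3 ChIP was measured in 3 hippocampus libraries. The authors deposited each library as a coverage signal track scaled to the library's reads, of the form that MACS2 writes. Within each track all values were multiples of a fixed step (tolerance 0.01), from which fragments per window were recovered. For the neurons the authors deposited read counts of the inclusion and skipping forms of splicing events, shown here without a test. Per the submitters' processing notes, the tools included BWA 0.7.12, CASAVA 1.7, TopHat2 and MACS2 and the build was mm10, with no role stated for any tool. The sources used here do not give read filters or the treatment of reads with several places, and these decide what an empty window means.

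Mean coverage per window was divided by the library's median over autosomal windows of 10 kb. Windows with a mean level of at least 0.1 were tested on log2(level + 0.1) with limma 3.58.1 (R 4.3.3) with a trend, Benjamini-Hochberg adjusted over all autosomal windows at 0.05. The single home cage library is assumed to vary like the enriched cage ones. Cluster levels were compared with exact permutation tests over libraries. The limma step was tested on simulated data with the same spread in every window. voom weights used edgeR 4.0.16. Promoters were aligned with edlib. Counting intervals are Poisson intervals at 95% on the fragments.

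Windows named are the 5 highest and the lowest covered ones of each cluster, and those with the smallest unadjusted p in each direction; assembly gaps were not looked up, so covered windows replaced the planned gap rule. Genes named are the 8 highest and 4 lowest per cluster, the genes nearest to named windows, and Zfp genes where they are grouped. Last exons were not analysed here; the last 10% of the body was used. The clusters, the lists and the tests were chosen with earlier results of these data known. Nothing says that the libraries came from separate animals, so spreads may be technical.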

Additional observations from a re-analysis of the deposited data

How the results depend on the processing

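With 1 home cage library, differences between the groups rest on the spread of 2 enriched cage libraries. Leaving out an enriched cage replicate moved the log2 difference from -0.32 to 0.17 on chromosome 2, from -0.45 to 0.12 on chromosome 4, and the median over tested windows from -0.38 to 0.12 (-0.14 with both). No paired analysis was possible because the home cage group has 1 library. The mean level over the 3 libraries was 0.117 on chromosome 2 and 1.62 on chromosome 4. It became 0 and 0.674 as a median over windows, 9.67 on chromosome 4 over windows with at least 90% of bases covered, and 0.498 and 2.41 over covered 1 kb stretches (chosen after seeing the data). Against like regions, chromosome 4 turned to -0.59 (other Zfp genes), -1.05 (olfactory receptor genes) and -0.80 (flanks) by the median, and to 0.75 against the protocadherins in windows covered to 90%. The 90% limit picks windows with a high level, so the values of 9.67 and 0.75 come from windows chosen by the value measured. Covered stretches too are picked by coverage in the same libraries, and they still hold uncovered bases. The cause of these turns was not tested. Windows of 5 or 50 kb, scaling by the mean window and at most 2 fragments per start kept the direction of these levels and ratios. Calls over all autosomal windows, 66 as reported, were 17 and 114 with pseudocounts of 0.5 and 0.02, 443 with no filter, 565 at 5 kb, 0 at 50 kb, 8 with voom weights, 48 with the median-ratio scaling and 303 without a trend. In the clusters they were 23 with no filter, 1 without a trend and 0 under the other 6. No chromosome 2 window and no protein-coding gene of either cluster was covered to 90% in every library, so those values could not be had. The chromosome 2 values rest on few fragments, 1809 and 838 in the enriched cage libraries and 774 in the home cage library.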
